A study of Mus musculus with 6 samples.

Results

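Aminoacyl-tRNA synthetases are the enzymes that load each amino acid onto its matching transfer RNA (tRNA), so that the ribosome can read the genetic code. The count table of this study was searched for 36 of their genes, by matching Ensembl identifiers to a fixed set of symbols, and all 36 were found among its 20409 features. They comprise 20 genes whose products work in the cytosol and 16, with symbols ending in 2, whose products work in mitochondria. All 36 also passed the filter on low counts, among 13346 genes tested.

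RNA was measured in villus epithelium of the duodenum from 3 wild-type (WT) mice and 3 double mutant (DM) mice, with 1 polyadenylated RNA library per mouse. DM mice carried Smad4 fl/fl, a Ctnnb exon3 fl/wt allele that yields stabilized β-catenin once recombined, and Villin-CreERT2, a tamoxifen-inducible recombinase expressed throughout the intestinal epithelium. They received tamoxifen intraperitoneally at 0.05 g/kg on 4 consecutive days, and villi were taken 7 days post induction. WT mice were littermates that were not injected, so tamoxifen and genotype cannot be told apart. Both groups were on a background enriched for C57BL6, and in each group replicate 1 was male and replicates 2 and 3 were female. Age was not given in the sources used here.

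Synthetases fall into classes I and II, named for the fold of the catalytic domain, and most amino acids have a separate nuclear gene for the cytosolic and the mitochondrial enzyme. Kars and Gars are known to serve both compartments from a single gene. Glutaminyl-tRNA of mitochondria is made without a dedicated glutaminyl enzyme, through an amidotransferase. In the cytosol, 8 of the listed genes encode enzymes of the multi-synthetase complex, which is held together by the scaffold proteins Aimp1, Aimp2 and Eef1e1. In the intestine, the genes of protein synthesis are known to be more active in dividing crypt cells than in mature villus cells.

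The libraries held 19678507 to 26337318 counts each. Levels are given as CPM, a gene's counts relative to its library total, scaled by the trimmed mean of M values (TMM), and 3 counts, taken as the lowest level this depth can show, lay between 0.125 and 0.163 CPM, for counting error only. Smad4, the deleted gene, was at 120, 180 and 144 CPM in WT mice 1, 2 and 3 and at 26.0, 36.8 and 32.1 CPM in DM mice 1, 2 and 3. Ctnnb1 mRNA had a fitted log2 fold change of -0.15 (adjusted p = 0.36), and a deleted exon does not have to change the gene's total. Of all tested genes, 2632 (19.7%) were higher and 2273 (17%) lower in DM villi at an adjusted p under 0.05. The same fit scaled by library size alone gave 3732 higher and 1425 lower genes, and it moved the median log2 fold change of all genes from 0.02 to 0.22.

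Transcripts of most synthetases were more abundant in DM villi, in both compartments. Among the cytosolic genes, 17 of 20 rose, none fell and 3 did not pass the test, where 19.7% of all genes rose. Their median log2 fold change was 0.74, beside 0.02 for all tested genes. Of the mitochondrial genes, 10 of 16 rose, none fell and 6 did not pass, with a median of 0.67. Also at an unadjusted p under 0.05 in edgeR and at an adjusted one in DESeq2 and limma-voom, 0 members were lower. Every DM mouse was above every WT mouse for 18 cytosolic and 12 mitochondrial genes, an order found in 28.1% of all tested genes. The summed cytosolic level was 912, 958 and 936 CPM in the WT mice and 1470, 1551 and 1342 CPM in the DM mice, so the groups did not overlap. The summed mitochondrial level without Lars2, which varied widely, was 202, 175 and 175 CPM in WT and 261, 306 and 270 CPM in DM.

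**Figure D1:**
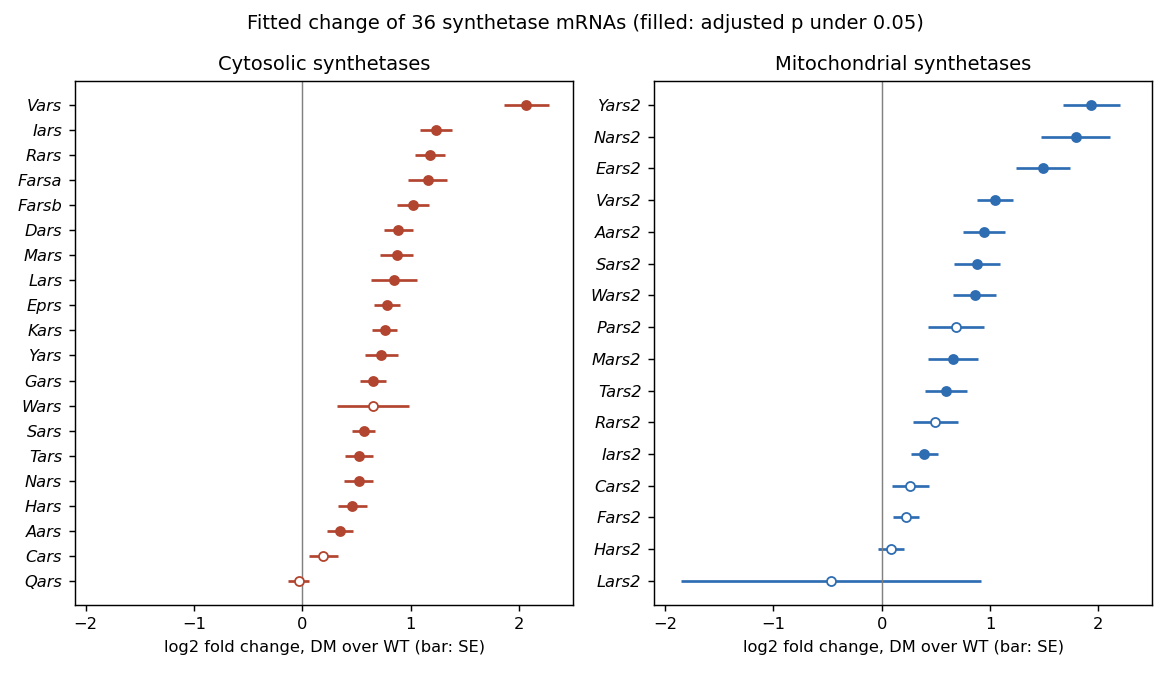
Fitted log2 fold change of DM over WT (horizontal axis) for each of the 36 synthetase mRNAs, cytosolic on the left and mitochondrial on the right, with bars for the standard error and filled points for an adjusted p under 0.05. All but Qars and Lars2 lie to the right of 0, from 0.09 for Hars2 to 2.07 for Vars.

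Without DM mouse 2, the mitochondrial count dropped from 10 to 6 genes and the cytosolic one from 17 to 14, while the count of all genes that rose dropped from 2632 to 1812. Without WT mouse 3, the counts were 7 mitochondrial, 13 cytosolic and 2108 of all genes. DM mouse 2 had the highest level of the DM group for 13 of 20 cytosolic and 13 of 16 mitochondrial genes, and DM mouse 3 had the lowest for 13 cytosolic genes. In the 4 females alone, an alternative chosen after the data were seen, 17 cytosolic and 10 mitochondrial genes rose, and the 2 males allow no test. These were not all the same genes: in the females Aars and Mars2 lost their call, and Wars and Rars2 gained one. Cell type markers moved with the genotype as well. Stem and progenitor markers summed to 111 to 231 CPM in WT and to 544 to 663 CPM in DM, with 9 of 13 higher and none lower, where 19.7% of all tested genes were higher and 17% lower. Enterocyte markers summed to 62550 to 71680 CPM in WT and to 35930 to 38180 CPM in DM, with 10 of 14 lower and 1 higher. Tuft cell markers summed to 123 to 181 CPM in WT and to 14.8 to 16.3 CPM in DM, with all 7 tested genes lower, and enteroendocrine markers to 241 to 339 CPM in WT and to 101 to 111 CPM in DM, with 7 of 8 lower. In bulk villi, a different number of cells of a type and a different amount of RNA per cell cannot be told apart, and the part of these markers in the synthetase values was not tested.

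The valyl-tRNA synthetase gene, Vars (chromosome 17, 35137932 to 35153267 in mm9), showed the largest fold change of the 36. Its level was 7.54, 11.3 and 11.7 CPM in WT mice 1, 2 and 3 and 34.2, 49.4 and 43.9 CPM in DM mice 1, 2 and 3. All 3 DM mice were above all WT mice. The fitted log2 fold change was 2.07 ± 0.21 (SE, adjusted p = 0.000297), and it stayed between 1.89 and 2.21 when each mouse was left out in turn. Vars shares 678 bases of its span with D17H6S56E-5 on the other strand, and the strand setting of the counting is not given in the sources used here.

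Rars, the arginyl enzyme of the complex, came next by adjusted p (chromosome 11, 35621883 to 35648008). WT mice had 54.2, 46.5 and 56.1 CPM of Rars and DM mice 129, 126 and 99.3 CPM. Its log2 fold change was 1.18 ± 0.14 (adjusted p = 0.000546). Iars, the isoleucyl enzyme (chromosome 13, 49777469 to 49829636), was at 18.2, 20.9 and 16.9 CPM in WT and 51.2, 42.9 and 37.8 CPM in DM. For Iars the log2 fold change was 1.23 ± 0.15 (adjusted p = 0.000635). Both genes more than doubled in mean level, and neither lost its call in any alternative fit.

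Phenylalanyl-tRNA synthetase is built from an α subunit, encoded by Farsa, and a β subunit, encoded by Farsb, and both transcripts rose. Farsa was measured at 14.6, 10.9 and 12.5 CPM in WT mice and at 23.8, 34.4 and 27.0 CPM in DM mice, a log2 fold change of 1.16 ± 0.18 (adjusted p = 0.00181). Farsb had 31.2, 30.1 and 27.6 CPM in WT and 67.1, 64.9 and 48.3 CPM in DM, a log2 fold change of 1.02 ± 0.15 (adjusted p = 0.00131). The subunits thus changed by similar amounts, and neither gene's groups overlapped. Farsb shares 2329 bases of its span with Sgpp2 on the other strand, whose log2 fold change was 0.22 (adjusted p = 0.16).

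Dars, the aspartyl enzyme, and Kars, the lysyl enzyme, belong to the complex as well. Dars was at 30.3, 27.1 and 23.4 CPM in WT and 55.0, 48.4 and 46.0 CPM in DM (log2 fold change 0.89 ± 0.14, adjusted p = 0.00174). Kars was at 50.6, 54.6 and 60.2 CPM in WT and 89.0, 101 and 90.6 CPM in DM (log2 fold change 0.76 ± 0.11, adjusted p = 0.00154). Among the remaining genes that rose in every alternative, fitted log2 fold changes were 0.87 for Mars (methionyl), 0.78 for Eprs, which joins the glutamyl and prolyl enzymes in a single protein, 0.73 for Yars (tyrosyl), 0.65 for Gars (glycyl) and 0.57 for Sars (seryl). Mars overlaps the stress gene Ddit3 by 68 bases at the 3′ ends, and the log2 fold change of Ddit3 was -0.81 (adjusted p = 0.0363). Ddit3 was at -0.46 (adjusted p = 0.0565) without WT mouse 1, lost its call without any single DM mouse as well, and had -0.61 (adjusted p = 0.0762) under library size alone.

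Lars, Nars and Tars rose with calls that rested on single mice. Leucyl-tRNA synthetase, Lars, had 26.7, 20.2 and 20.0 CPM in WT and 38.7, 51.4 and 30.2 CPM in DM (log2 fold change 0.85 ± 0.21, adjusted p = 0.0141). Without WT mouse 2 or WT mouse 3 its adjusted p became 0.0556 or 0.053. Tars, the threonyl enzyme, had 79.6, 60.7 and 62.3 CPM in WT and 102, 97.6 and 91.2 CPM in DM (log2 fold change 0.52 ± 0.13, adjusted p = 0.0153), with 0.0615 or 0.0627 without the same mice. The asparaginyl gene Nars was at 113, 148 and 135 CPM in WT and 186, 210 and 172 CPM in DM (log2 fold change 0.52 ± 0.13, adjusted p = 0.0165), and its adjusted p was 0.0606 without DM mouse 2. In all 3 genes the groups did not overlap.

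Calls for Aars and Hars were the least stable of the cytosolic class. Aars, the alanyl enzyme, was at 74.7, 92.8 and 79.2 CPM in WT and at 105, 110 and 98.8 CPM in DM (log2 fold change 0.35 ± 0.12, adjusted p = 0.0482). It was called in 1 of the 6 fits with a mouse left out, and DESeq2 gave it an adjusted p of 0.0762. Hars, the histidyl enzyme, was at 27.9, 22.9 and 21.3 CPM in WT and at 31.5, 34.7 and 33.3 CPM in DM (log2 fold change 0.46 ± 0.14, adjusted p = 0.0279), and it was called in 2 of the 6. Its adjusted p without DM mouse 2, DM mouse 3, WT mouse 2 or WT mouse 3 lay between 0.0785 and 0.0975. Aars without WT mouse 2 was the sole fit of the 6 that kept its call.

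**Figure D2:**
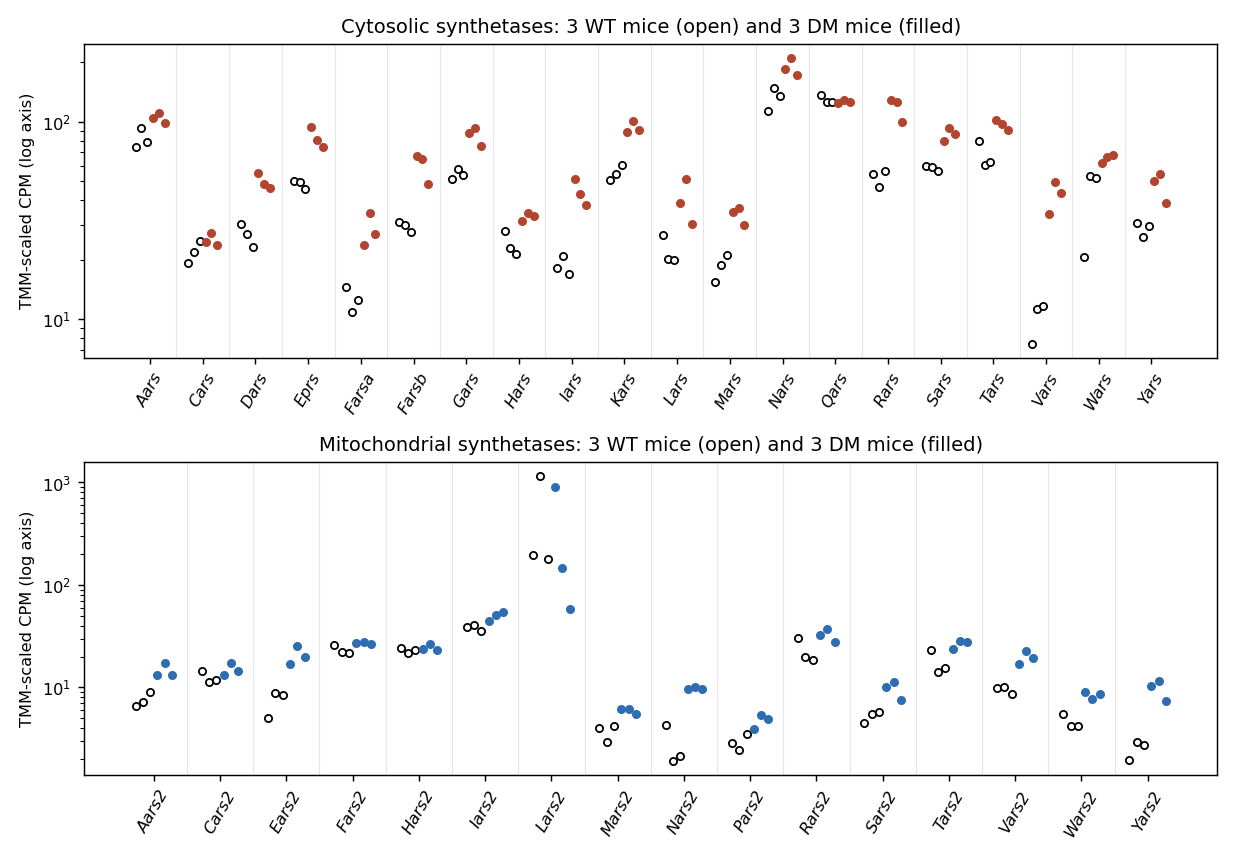
TMM-scaled CPM (log axis) of every synthetase in each mouse, 3 WT as open circles and 3 DM as filled circles, in replicate order from left to right, for cytosolic genes (top) and mitochondrial genes (bottom). Vars is separated by the widest gap of the top panel, the circles of Qars coincide between 124 and 136 CPM, and Lars2 spans 58.3 to 1160 CPM without regard to group.

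Glutaminyl-tRNA synthetase, Qars, had a nearly flat level although it belongs to the complex. WT mice had 136, 126 and 126 CPM and DM mice 124, 129 and 126 CPM, so the groups overlapped. Its fitted log2 fold change was -0.035 ± 0.10 (adjusted p = 0.80), and library size alone turned it to 0.16 (adjusted p = 0.22). The other 7 enzymes of the complex all rose, and the median log2 fold change over the 8 was 0.86. Of all tested genes, 19.7% rose, with a median of 0.02. Over the 12 cytosolic genes outside the complex, of which 10 rose, the median was 0.61. Whether these groups of genes differ was not tested.

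Cars and Wars were the other cytosolic genes that did not pass. The cysteinyl gene Cars was at 19.3, 22.0 and 25.0 CPM in WT and at 24.7, 27.3 and 23.9 CPM in DM (log2 fold change 0.19 ± 0.14, adjusted p = 0.30). Wars, the tryptophanyl enzyme and a known target of interferon-γ, was at 20.7, 53.4 and 51.7 CPM in WT and at 62.2, 66.6 and 68.0 CPM in DM. Its log2 fold change was 0.65 ± 0.33 (adjusted p = 0.17), although no DM mouse lay below a WT mouse. WT mouse 1 was low, and without it the log2 fold change was 0.32 (adjusted p = 0.0661). With sex as a covariate the adjusted p was 0.0462, and in the females alone it was 0.0383 with a log2 fold change of 0.36.

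That mouse stood apart in other genes too. Goblet cell markers summed to 125 CPM in WT mouse 1, against 11620 and 11040 CPM in WT mice 2 and 3 and 4669 to 5064 CPM in DM mice, and Paneth cell markers summed to 7.91 CPM in it, against 909 and 1500 CPM in WT mice 2 and 3 and 154 to 248 CPM in DM mice. Ido1, the interferon-γ-induced enzyme that breaks down tryptophan, was at 0.667 CPM in it and at 44.7 and 55.6 CPM in the other WT mice. Ido1 levels in DM mice were 5.59, 3.76 and 6.41 CPM. Of 20 tested genes of the interferon-γ response, 1 rose (Irf8, a transcription factor, log2 fold change 0.87) and 1 fell (Irgm2, an immunity-related GTPase, -0.59), beside 19.7% and 17% of all tested genes, with a median of 0.07. Without WT mouse 1, 16 cytosolic and 11 mitochondrial synthetases rose, and 2783 of all genes did, against 2632 with every mouse.

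The order of levels was also read per length, as mean CPM per kilobase of annotated exon. In WT villi, Nars had the highest cytosolic level at 50.1 CPM per kb, followed by Tars at 25.6, Kars at 24.5, Gars at 22.8 and Qars at 20.9, and Vars had the lowest at 1.81. In DM villi, Nars stood at 71.8, Kars at 41.6, Tars at 36.8, Rars at 36.6 and Gars at 35.9 CPM per kb, and Cars had the lowest level at 5.44. Kars, Tars and Gars therefore stayed close to each other, while Qars, at 20.4, did not move with them. The exon lengths count every annotated exon once, whether or not it is used in villi. The paper set a minimum for RNA integrity, and the part of RNA integrity in these levels was not tested.

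Levels of the mitochondrial class were read in the same way. Apart from Lars2, the highest WT level per length was that of Fars2, the mitochondrial phenylalanyl enzyme, at 10.9 CPM per kb, and the lowest was that of Nars2 at 0.661. The members with the largest fold changes were among the least abundant: Yars2 had 0.807 and Nars2 0.661 CPM per kb in WT. All 16 were above the 3-count level in every mouse.

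Yars2, the mitochondrial tyrosyl enzyme (chromosome 16, 16303058 to 16309733), was at 1.96, 2.94 and 2.73 CPM in WT and at 10.2, 11.6 and 7.31 CPM in DM. The log2 fold change of Yars2 was 1.94 ± 0.26 (adjusted p = 0.000954), the largest of its class. Nars2, the asparaginyl enzyme (chromosome 7, 104100015 to 104213271), was at 4.33, 1.90 and 2.12 CPM in WT and at 9.58, 10.1 and 9.54 CPM in DM. Its log2 fold change was 1.79 ± 0.31 (adjusted p = 0.00313). The DM mice agreed closely for Nars2, while WT mouse 1 was at about double the other WT mice.

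Ears2, the mitochondrial glutamyl enzyme (chromosome 7, 129180727 to 129210777), was measured at 5.04, 8.81 and 8.44 CPM in WT and 17.0, 25.6 and 19.8 CPM in DM, a log2 fold change of 1.49 ± 0.25 (adjusted p = 0.00246). Vars2, the valyl enzyme, rose from 9.91, 10.0 and 8.54 CPM to 16.8, 22.7 and 19.4 CPM (log2 fold change 1.05 ± 0.17, adjusted p = 0.00194). Aars2, the alanyl enzyme, rose from 6.54, 7.13 and 9.10 CPM to 13.2, 17.2 and 13.3 CPM (0.94 ± 0.19, adjusted p = 0.0063). None of these genes had overlapping groups. Wars2, the tryptophanyl enzyme, rose from 5.50, 4.24 and 4.25 CPM to 9.01, 7.75 and 8.69 CPM (0.86 ± 0.20, adjusted p = 0.0102), again without overlap.

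For the other 4 mitochondrial genes that rose, the call depended on the mice included. For Tars2, Iars2 and Mars2 it also depended on the scaling or the test. The adjusted p of Tars2 was 0.0501 in edgeR with RLE factors, another scaling, and that of Iars2 was 0.0539 in DESeq2. Mars2 had 0.0569 and 0.0719 in these fits. Sars2 (seryl) was at 4.54, 5.44 and 5.71 CPM in WT and 10.1, 11.2 and 7.55 CPM in DM, with a log2 fold change of 0.88 ± 0.21 (adjusted p = 0.0126, and 0.0564 without DM mouse 2). Tars2 (threonyl) was at 22.9, 13.98 and 15.5 CPM in WT and 23.6, 28.1 and 27.7 CPM in DM, with 0.60 ± 0.20 (adjusted p = 0.0427). Iars2 (isoleucyl) was at 38.9, 40.2 and 35.2 CPM in WT and 44.8, 50.8 and 54.8 CPM in DM, with 0.40 ± 0.12 (adjusted p = 0.0334). WT and DM mice did not overlap in any of them, yet for Tars2 WT mouse 1 came close to DM mouse 1. Mars2 (methionyl) was at 4.04, 2.94 and 4.195 CPM in WT and 6.10, 6.12 and 5.46 CPM in DM, with 0.66 ± 0.23 (adjusted p = 0.0497). Mars2 and Tars2 were each called in 1 of the 6 fits with a mouse left out, without WT mouse 1 in both cases, and Iars2 in 2, without DM mouse 1 and without WT mouse 1. Iars2 shares 2018 bases of its span with Rab3gap2 on the other strand, which fell by 0.45 on the log2 scale (adjusted p = 0.0139).

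The 6 mitochondrial genes that did not pass included Pars2, Rars2 and Fars2, whose calls depended on the scaling. Pars2, the prolyl enzyme, was at 2.87, 2.45 and 3.49 CPM in WT and at 3.90, 5.38 and 4.94 CPM in DM (log2 fold change 0.69 ± 0.26, adjusted p = 0.0657). Rars2, the arginyl enzyme, was at 30.6, 19.7 and 18.5 CPM in WT and at 32.2, 37.1 and 27.8 CPM in DM (0.49 ± 0.21, adjusted p = 0.0969), and without WT mouse 1 its adjusted p was 0.00506. Fars2 was at 25.7, 22.1 and 21.9 CPM in WT and at 27.4, 27.97 and 26.2 CPM in DM (0.23 ± 0.12, adjusted p = 0.18). With library size alone all 3 passed, at adjusted p of 0.0276, 0.0239 and 0.0218.

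Cars2 and Hars2 had small fitted changes. Cars2, the cysteinyl enzyme, was at 14.4, 11.3 and 11.8 CPM in WT and at 13.3, 17.2 and 14.5 CPM in DM (log2 fold change 0.27 ± 0.17, adjusted p = 0.25). Hars2, the histidyl enzyme, was at 24.2, 21.6 and 23.2 CPM in WT and at 23.9, 26.6 and 23.0 CPM in DM (0.09 ± 0.12, adjusted p = 0.61). Hars and Hars2 lie head to head on chromosome 18, from 36926184 to 36942859 and from 36942662 to 36952216 in mm9, and share 198 bases, so reads in these bases cannot be told apart without strand.

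Lars2, the mitochondrial leucyl enzyme (chromosome 9, 123276058 to 123371782), had the most uneven values of all members. It was at 194, 1160 and 178 CPM in WT mice and at 901, 146 and 58.3 CPM in DM mice. WT mouse 2 and DM mouse 1 were high and the other 4 mice low, so the spread did not follow the groups, and the log2 fold change was -0.47 ± 1.39 (adjusted p = 0.82). It was 0.98 without WT mouse 2 and 0.04 without DM mouse 3, with no call in either. The same mice were high for mmu-mir-689-2, listed at 630, 5321 and 527 CPM in WT and 3014, 369 and 124 CPM in DM. They were high as well for mmu-mir-2134-4, at 11.2, 99.6 and 7.03 CPM in WT and 54.7, 6.26 and 0.997 CPM in DM.

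The last part of Lars2 matches other places of the mm9 genome. Stretches between 123370910 and 123371307 match 5 places outside the gene at 97% identity or more over at least 80 bases, the longest being 244 bases inside Gphn on chromosome 12. Searched in the same way, Farsa had 2 such matches, Iars 7, all within a single stretch of chromosome 1 (19321316 to 19323270) and partly nested, Qars 17 and Yars 1982, while none were found for the other 31 members. How the counting treated reads that match several places is not given in the sources used here, and the part of these matches in the Lars2 values was not tested.

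**Figure D3:**
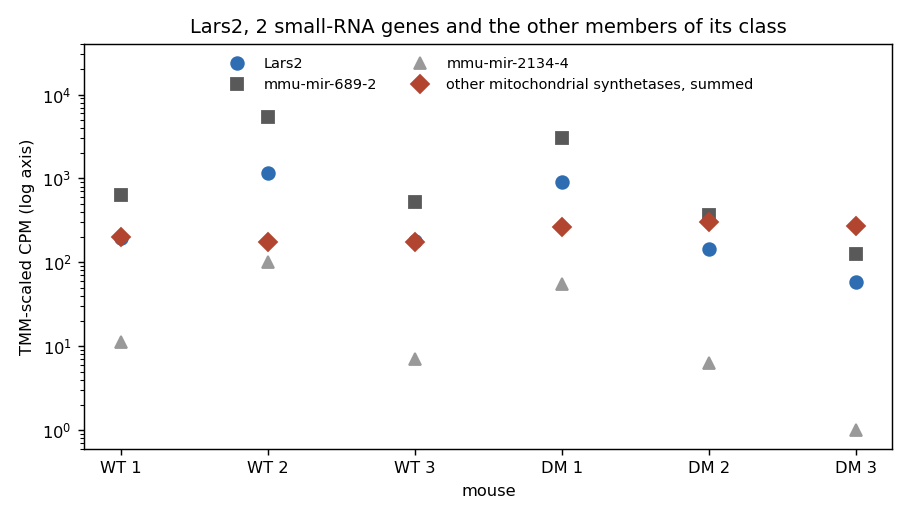
TMM-scaled CPM (log axis) in each of the 6 mice for Lars2 (circles), mmu-mir-689-2 (squares), mmu-mir-2134-4 (triangles) and the sum of the other 15 mitochondrial synthetases (diamonds). The first 3 are highest in WT mouse 2 and DM mouse 1, where Lars2 reached 1160 and 901 CPM, while the summed class stays between 175 and 306 CPM.

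Setting the cytosolic and the mitochondrial enzyme of the same amino acid side by side within each mouse gave 17 pairs, in which Fars2 and Eprs appear more than once. Ratios are log2 of cytosolic over mitochondrial CPM. For asparagine the ratio was 4.71, 6.28 and 5.99 in WT and 4.28, 4.38 and 4.17 in DM. For tyrosine it was 3.98, 3.16 and 3.44 in WT and 2.30, 2.23 and 2.41 in DM. In both, the mitochondrial transcript gained on the cytosolic one in every DM mouse, as it did for alanine, where the mean log2 ratio changed by -0.60.

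The valine pair moved the other way, with log2 ratios of -0.40, 0.17 and 0.45 in WT and 1.03, 1.12 and 1.18 in DM. Isoleucine did too, with -1.09, -0.94 and -1.06 in WT and 0.19, -0.24 and -0.54 in DM. The ratio was also higher in every DM mouse than in any WT mouse for Farsa and Farsb over Fars2, for Rars over Rars2 and for Hars over Hars2. In all, 6 ratios were higher and 3 lower without overlap, and 8 overlapped. Each of the 9 had an exact two-sided permutation p of 0.1, the smallest that 3 mice against 3 allow, and 0.19 after Benjamini-Hochberg adjustment over the 17 pairs. In 9 of the 17 pairs the cytosolic gene had the larger fitted log2 fold change.

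**Figure D4:**
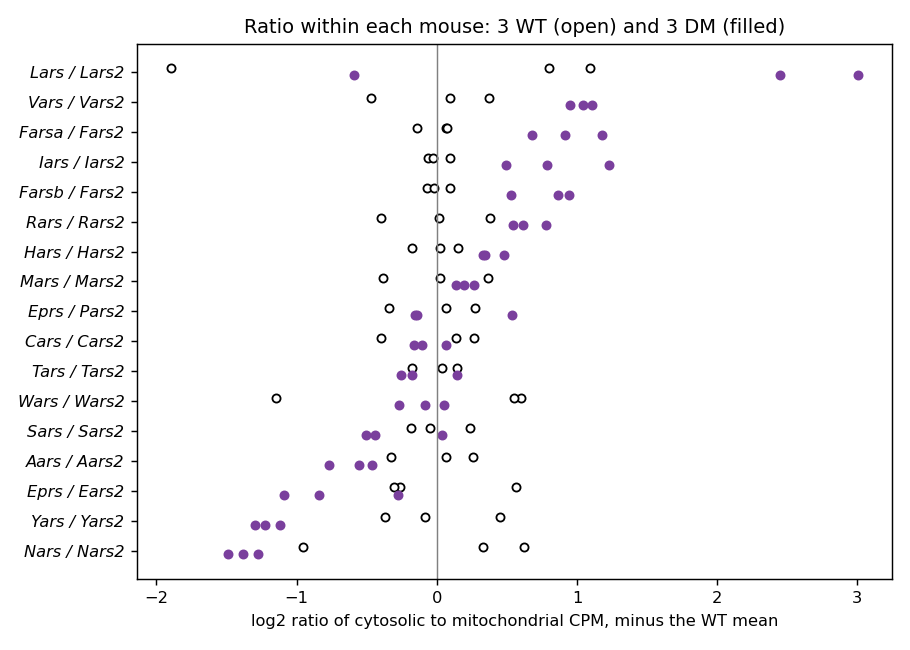
Log2 ratio of cytosolic to mitochondrial CPM within each mouse, minus the WT mean (horizontal axis), for 17 pairs of enzymes of the same amino acid, 3 WT mice as open and 3 DM mice as filled circles. Filled circles lie to the right of all open ones in 6 pairs, such as Vars over Vars2, and to the left in 3, such as Nars over Nars2.

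By catalytic class, with Eprs, which holds an enzyme of each class, counted in class I, all 10 class II cytosolic genes rose, with a median log2 fold change of 0.61, and 7 of 10 class I genes rose, with a median of 0.81. The class I genes that did not pass were Qars, Cars and Wars. In mitochondria, 6 of 9 class I and 4 of 7 class II genes rose, with medians of 0.66 and 0.69, where 19.7% of all tested genes rose. The difference between the classes was not tested.

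The scaffold proteins of the complex all rose, where 19.7% of all tested genes rose. Eef1e1 was at 5.21, 3.70 and 3.94 CPM in WT and at 12.1, 15.4 and 9.68 CPM in DM, a log2 fold change of 1.53 ± 0.24 (adjusted p = 0.00172). Aimp1 was at 39.4, 25.4 and 35.6 CPM in WT and at 51.2, 59.8 and 49.6 CPM in DM (0.68 ± 0.17, adjusted p = 0.0158, and 0.0587 without DM mouse 2). Aimp2 was at 9.29, 8.54 and 9.96 CPM in WT and at 17.2, 14.98 and 11.6 CPM in DM (0.66 ± 0.18, adjusted p = 0.0231), and it was called in 3 of the 6 fits with a mouse left out, losing its call without DM mouse 1, DM mouse 2 or WT mouse 2. In all of them every DM mouse was above every WT mouse, an order found in 28.1% of all tested genes.

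Among relatives of the synthetases and proofreading enzymes, 3 of 14 tested genes rose and none fell, with a median log2 fold change of 0.34, a share of rises near the 19.7% of all tested genes. Dtd1, which removes D-amino acids from tRNA, had the largest rise at 1.88, and Aarsd1, a relative of the alanyl editing domain, rose by 1.01. Qrsl1, the catalytic subunit of the amidotransferase that completes mitochondrial glutaminyl-tRNA, rose by 0.66 on the log2 scale.

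Genes that make and modify tRNA, the substrate of the synthetases, were measured in the same libraries. Of 55 tested genes of tRNA maturation and modification, 29 rose (19.7% of all tested genes) and none fell, with a median log2 fold change of 0.68. The largest rise was that of Rpp38, a subunit of the ribonuclease that trims the 5′ end of tRNA precursors, at 3.54 ± 0.63, from 0.0833, 0.0544 and 0.303 CPM in WT to 1.22, 1.62 and 2.42 CPM in DM. In 2 of the WT mice Rpp38 lay under the 3-count level, so the size of its change is uncertain. Of 25 genes of RNA polymerase III, which transcribes tRNA genes, and of its factors, 8 rose and 2 fell (19.7% and 17% of all tested genes), with a median of 0.31. Polr3d, a subunit of the polymerase, had the largest rise at 1.58, and Gtf3c1, a subunit of the factor that recognizes tRNA promoters, had the largest fall at -1.06. Of 11 mitochondrial translation factors, 3 rose (19.7% of all tested genes) and none fell, with a median of 0.32, and Tsfm, an elongation factor, had the largest rise at 1.22.

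Several cytosolic synthetase genes are known targets of ATF4, the transcription factor of the amino acid stress response. Of 27 tested genes of that response, 10 rose and 5 fell, with a median log2 fold change of 0.38. Phgdh, the first enzyme of serine synthesis, had the largest rise at 3.50 (2.98 without WT mouse 1, where it lay under the 3-count level), and Trib3, a pseudokinase, had the largest fall at -1.65. Atf4 mRNA itself was at 159, 171 and 169 CPM in WT and at 143, 166 and 124 CPM in DM (log2 fold change -0.21 ± 0.13, adjusted p = 0.23). Over all tested genes, 19.7% rose and 17% fell. ATF4 protein was not measured here.

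Myc, another known regulator of protein synthesis genes, was at 0.417, 1.90 and 2.53 CPM in WT and at 18.6, 15.5 and 21.0 CPM in DM, a log2 fold change of 3.53 ± 0.52 (adjusted p = 0.00234). Of 10 genes of the MYC network, 2 rose and 5 fell (19.7% and 17% of all tested genes), with a median log2 fold change of -0.11, and Mxd1, a partner of Max that opposes MYC, had the largest fall at -1.72.

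Promoter windows from RefSeq (GRCm38.p6), from 250 bases before to 50 bases after each start, were matched for 27 members, 13 cytosolic and 14 mitochondrial. They were searched on both strands for the letters TGATGNAA, bound by dimers of ATF4 and C/EBP proteins, and for CACGTG, the E-box bound by MYC and related factors. TGATGNAA was in the windows of 5 of the 13 cytosolic members (Aars, Gars, Iars, Tars and Yars) and of none of the 14 mitochondrial ones, and in 3.97% of all 32851 windows. CACGTG was in those of 4 cytosolic members (Aars, Farsb, Iars and Tars) and 1 mitochondrial member (Ears2), and in 7.15% of all windows. The letters TGACGTCA, the cAMP response element, were in none of the 27 and in 1.79% of all windows. Cars, Hars, Lars, Nars, Rars, Vars, Wars, Hars2 and Pars2 were not matched. A match is a description of letters and not a bound site.

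The windows below lie before the start and are shown because they hold these letters, which are in capitals. They are written 5′ to 3′ along the gene's strand, and a match on the other strand reads as its reverse complement. The first 3 hold the ATF4 and C/EBP letters and the last 2 the E-box.
Aars, chr8:111033700-111033767, plus strand: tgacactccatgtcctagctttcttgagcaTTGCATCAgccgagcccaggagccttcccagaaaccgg
Gars, chr6:55037941-55038000, plus strand: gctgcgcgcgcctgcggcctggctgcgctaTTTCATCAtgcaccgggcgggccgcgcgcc
Tars, chr15:11399659-11399703, minus strand: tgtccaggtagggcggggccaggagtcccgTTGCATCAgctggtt
Farsb, chr1:78488901-78488966, minus strand: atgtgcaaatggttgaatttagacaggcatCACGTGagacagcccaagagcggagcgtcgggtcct
Iars, chr13:49682031-49682096, plus strand: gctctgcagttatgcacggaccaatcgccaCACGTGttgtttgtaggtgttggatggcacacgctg

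The 5 genes with TGATGNAA had log2 fold changes of 0.35 (Aars), 0.65 (Gars), 1.23 (Iars), 0.52 (Tars) and 0.73 (Yars). Those with CACGTG had 0.35 (Aars), 1.02 (Farsb), 1.23 (Iars), 0.52 (Tars) and 1.49 (Ears2). Both sets share Aars, Iars and Tars. Vars, with the largest change of all, had no matched window.

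**Figure D5:**
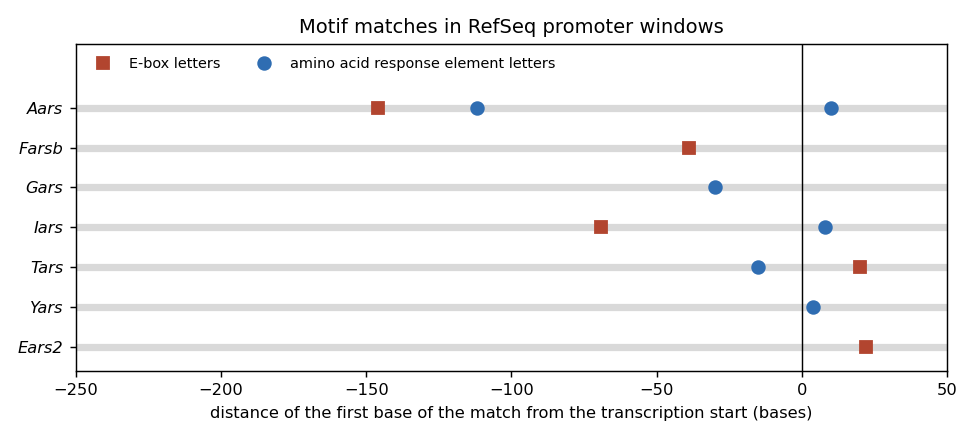
Distance from the transcription start, in bases, of each match to the amino acid response element letters (circles) and the E-box letters (squares) in the RefSeq windows of the 7 members that hold any. Matches run from 146 bases before the start, in Aars, to 22 bases after it, in Ears2.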

How the data were processed

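Bulk RNA-seq of duodenal villus epithelium was analyzed for 3 WT and 3 DM mice, grouped by the sample titles. The authors isolated epithelium in EDTA, enriched polyadenylated RNA, used HISAT2 to align the reads to mm9 and featureCounts to count them over genes, and the deposited table holds these counts for each mouse, not normalized. Strand and multimapping settings are not given in the sources used here, which can change the counts of overlapping or repeated genes. Of 20073 Ensembl identifiers, 20032 were found in GENCODE vM1 (mm9), which gave symbols and positions.

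Everything after the counts was computed in R 4.3.3. Genes kept by filterByExpr were scaled by TMM and tested with edgeR 4.0.16 (robust glmQLFit, glmQLFTest), and p-values were adjusted by Benjamini-Hochberg over the 13346 genes, with a threshold of 0.05. Standard errors are the log2 fold change over the square root of F. The code was tested on simulated data. Alternatives were DESeq2 1.42.0, RLE factors, library size alone, limma-voom (limma 3.58.1), no filter, a minimum of 10 counts in every mouse of 1 group, a replicate block, sex as a covariate and each mouse left out in turn. The fit on females alone was chosen after seeing the data. The 36 members and the gene lists were chosen with earlier results of these data known. Values of each mouse are given for the 6 members of each class with the smallest adjusted p, those with the largest and smallest change, those that did not pass and those whose call depended on 1 mouse or the scaling, for Farsa as the partner of Farsb, for the scaffold proteins and for Atf4, Myc and Smad4. From other lists, counts, the median and the largest rise and fall among genes that passed the test are given, and from cell type markers counts or summed levels. Farsa, Aarsd1, Qrsl1, Ido1, Ddit3, Sgpp2, Rab3gap2 and the small-RNA genes beside Lars2 were named after their values were seen. A further gene of the naming rule is not reported here. Each library comes from its own mouse.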

Additional observations from a re-analysis of the deposited data

How the results depend on the processing

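Over the alternatives, no synthetase was called lower in any fit, and the number called higher stayed between 13 and 17 of 20 cytosolic genes and between 6 and 13 of 16 mitochondrial genes. With each mouse left out, the mitochondrial count ranged from 6 to 11. Scaling by library size alone raised the median log2 fold changes to 0.94 (cytosolic) and 0.86 (mitochondrial), and lowered the number of all genes called lower to 1425, which goes with the shift of all genes under that scaling. Signs turned for 2 members without a call. Qars was at 0.16 under library size alone and 0.017 in females alone, and ranged from -0.057 to 0.0019 with a mouse left out, and Lars2 ranged from -2.31 to 0.98 with a mouse left out and was at -2.71 in females alone. The cause was not tested. A replicate block left 15 cytosolic and 7 mitochondrial genes higher and took the call from Aars, Hars, Iars2, Mars2 and Tars2. It lowered the count of all genes called higher from 2632 to 2084. Mice with the same number had the same sex, and whether they were paired in another way is not given in the sources used here. The correlations of their deviations were 0.022, -0.109 and 0.012, which with 3 mice a group cannot settle whether they were paired. Under DESeq2, 16 cytosolic and 8 mitochondrial genes rose. Every member was above the 3-count level in every mouse.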
